A study of Homo sapiens with 6 samples.

Results

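The peroxiredoxin family is made of 6 genes in humans, PRDX1 to PRDX6. All 6 were taken by symbol from the 40173 genes of the count table, and all 6 passed the filter on low counts, which kept 15250 genes. The family was selected on the contrast described here, because the mRNA of 1 member, PRDX2, was lower after FAM83H-AS1 silencing. The differences of the members are therefore given as a description, with an interval and without a p-value.

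Peroxiredoxins are abundant thiol peroxidases that remove hydrogen peroxide, organic peroxides and peroxynitrite. A conserved cysteine, the peroxidatic cysteine, is oxidised by the peroxide. It is then reduced again, in most members by thioredoxin and thioredoxin reductase and in PRDX6 by glutathione with the help of GSTP1. PRDX1 and PRDX2 act in the cytosol and nucleus, PRDX3 in mitochondria, PRDX4 in the endoplasmic reticulum and secretory pathway, and PRDX5 in mitochondria, peroxisomes and the cytosol. PRDX6 is cytosolic and lysosomal, also has phospholipase A2 activity, and takes part in surfactant lipid turnover in the lung.

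The cells were A549, an established line from a human lung adenocarcinoma. They were transfected with an siRNA against FAM83H-AS1, a long noncoding RNA, in the silenced group (n = 3 libraries) or with a negative control in the control group (n = 3). RNA was taken a day after transfection and sequenced from total RNA on the Ion Proton platform. The labels do not say whether the 3 libraries of a group came from separate cultures, so the errors below may be technical, and these RNA-Seq libraries come from 1 cell line. FAM83H-AS1 itself had 141, 185 and 292 counts in control replicates 1, 2 and 3, and 47, 48 and 75 counts in the silenced replicates. Its level was 15.9 ± 1.39 CPM (counts divided by the library's scaled total and scaled to 1000000 counts) in control and 4.87 ± 0.617 CPM in silenced cells (SD, n = 3 each), which left 30.6% of the control level (log2 fold change -1.70, standard error 0.148, adjusted p = 7.99e-05 by edgeR's quasi-likelihood test).

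The 6 libraries held between 9738291 and 17742643 counts. Control replicate 3 was the deepest, and the 5.8S rRNA pseudogene RNA5-8SP6 took 3.22% of its counts, against 0.241 to 0.448% in the other 5. The epithelial keratin KRT8 reached 1863 CPM and KRT18 reached 1316 CPM in control cells, while the epithelial markers EPCAM, KRT19 and CDH1 were low, at 3.86, 0.944 and 0.780 CPM. The leukocyte markers PTPRC, CD3E and CD14 and the fibroblast markers COL1A2, COL3A1 and DCN had group means between 0 and 0.676 CPM. The alveolar markers SFTPC, SFTPB and NKX2-1 also had group means of at most 0.601 CPM, and of the endothelial markers PECAM1 was near 0 and CDH5 was at 3.94 CPM in control cells.

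The stretch of coding sequence around the peroxidatic cysteine is shown first, since it is the part of these mRNAs that defines the family. Each line gives 30 bases of the coding strand, 5′ to 3′, from the GENCODE 29 transcript, with the codon of the peroxidatic cysteine in capitals.
PRDX1: cctcttgacttcacctttgtgTGCcccacg
PRDX2: cctctggacttcacttttgtgTGCcccacc
PRDX3: cctttggatttcacctttgtgTGTcctaca
PRDX4: ccacttgatttcacatttgtgTGTccaact
PRDX5: cctggggccttcacccctggaTGTtccaag
PRDX6: cctcgggactttaccccagtgTGCaccaca

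Counted from the start codon, the capitals are codon 52 in PRDX1, 51 in PRDX2, 108 in PRDX3, 124 in PRDX4, 100 in PRDX5 and 47 in PRDX6. On the GRCh38 build, the window of PRDX1 lies in exon 3 of 6 at chr1:45515752-45515781 on the minus strand, and that of PRDX2 in exon 3 of 6 at chr19:12801014-12801043 on the minus strand. The window of PRDX5 lies in exon 2 of 6 at chr11:64319839-64319868 and that of PRDX6 in exon 2 of 5 at chr1:173481348-173481377, both on the plus strand. The windows of PRDX3 on chromosome 10 and PRDX4 on the X chromosome each cross a splice junction between 2 exons.

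Within the 30 bases, PRDX1 and PRDX2 shared 27 identical positions, the most of the 15 pairs, and PRDX2 shared 18 with PRDX5 and 22 with PRDX6. Between coding sequences, the best local alignments of PRDX1, PRDX2, PRDX3 and PRDX4 were from 68.7% identical, for PRDX2 with PRDX3, to 75.4%, for PRDX1 with PRDX2. These alignments covered between 68.75%, for PRDX3 with PRDX4, and 93.9%, for PRDX1 with PRDX2, of the shorter coding sequence. The coding sequences of PRDX5 and PRDX6 gave best local alignments of at most 45 bases with any other member. With 1 transcript compared per member, no stretch of 50 bases was shared between any pair of members. At this length a read of these transcripts without errors would have had 1 origin among them.

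PRDX2 was the member that differed most between the groups. This mRNA encodes the cytosolic peroxiredoxin best known as a major protein of red blood cells. It had 3061, 2995 and 3831 counts in control replicates 1 to 3 and 1070, 918 and 1690 counts in the silenced replicates. Scaled to depth, this was 315, 259 and 227 CPM in control and 104, 84.9 and 126 CPM in silenced cells. The lowest control library thus stood above the highest silenced one, although control replicate 3 was the lowest and silenced replicate 3 the highest of its group. The means were 267 ± 44.6 CPM and 105 ± 20.4 CPM (SD, n = 3 each), so that 39.4% of the control level was left (log2 fold change -1.34, standard error 0.144, 95% interval -1.66 to -1.02). By log2 fold change, PRDX2 ranked 126 from the lowest of the 15250 genes tested, with 0.82% of them lower. With 1 library left out at a time, its log2 fold change ranged from -1.49, without silenced replicate 3, to -1.21, without control replicate 1. CPM is a share of each library, and in bulk RNA fewer cells that carry an mRNA and less of that mRNA per cell cannot be told apart.

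PRDX1, the cytosolic member closest to PRDX2 in sequence, was also lower in silenced cells, by a smaller amount. It had 6782, 8385 and 11518 counts in control replicates 1, 2 and 3 (697, 724 and 681 CPM) and 5936, 6226 and 8073 counts in the silenced replicates (580, 576 and 600 CPM). All 3 silenced libraries lay below all 3 control libraries. The means were 701 ± 21.8 CPM and 585 ± 13.1 CPM (SD, n = 3 each), which is 83.5% of control (log2 fold change -0.26, standard error 0.0645, 95% interval -0.40 to -0.12).

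PRDX3, the mitochondrial member, had 191, 197 and 202 CPM in control and 171, 182 and 183 CPM in silenced cells, from 1859, 2278 and 3416 and from 1749, 1966 and 2465 counts. The groups did not overlap, but the 95% interval of its log2 fold change of -0.14 (standard error 0.0675) ran from -0.29 to 0.01 and included 0.

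The groups overlapped for PRDX4, PRDX5 and PRDX6. PRDX4, the form of the endoplasmic reticulum, had 98.2, 115 and 103 CPM in control and 111, 110 and 115 CPM in silenced cells, from between 955 and 1739 counts a library. It was the only member with a positive log2 fold change, 0.09 (standard error 0.0794, 95% interval -0.09 to 0.26). PRDX5, which forms its disulfide within 1 molecule, had 266, 249 and 256 CPM in control and 235, 205 and 265 CPM in silenced cells, from between 2216 and 4332 counts. Silenced replicate 3 lay within the range of the control libraries, and the log2 fold change was -0.13 (standard error 0.0907, 95% interval -0.33 to 0.07). PRDX6, the 1-Cys member, had 341, 353 and 332 CPM in control and 294, 369 and 327 CPM in silenced cells, from between 3008 and 5614 counts. Its highest and lowest values were both in silenced libraries, and its log2 fold change was -0.05 (standard error 0.0851, 95% interval -0.24 to 0.14). The intervals of these 3 members leave room for differences of up to 0.33 on the log2 scale, so an equal level in the groups was not shown.

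**Figure D1:**
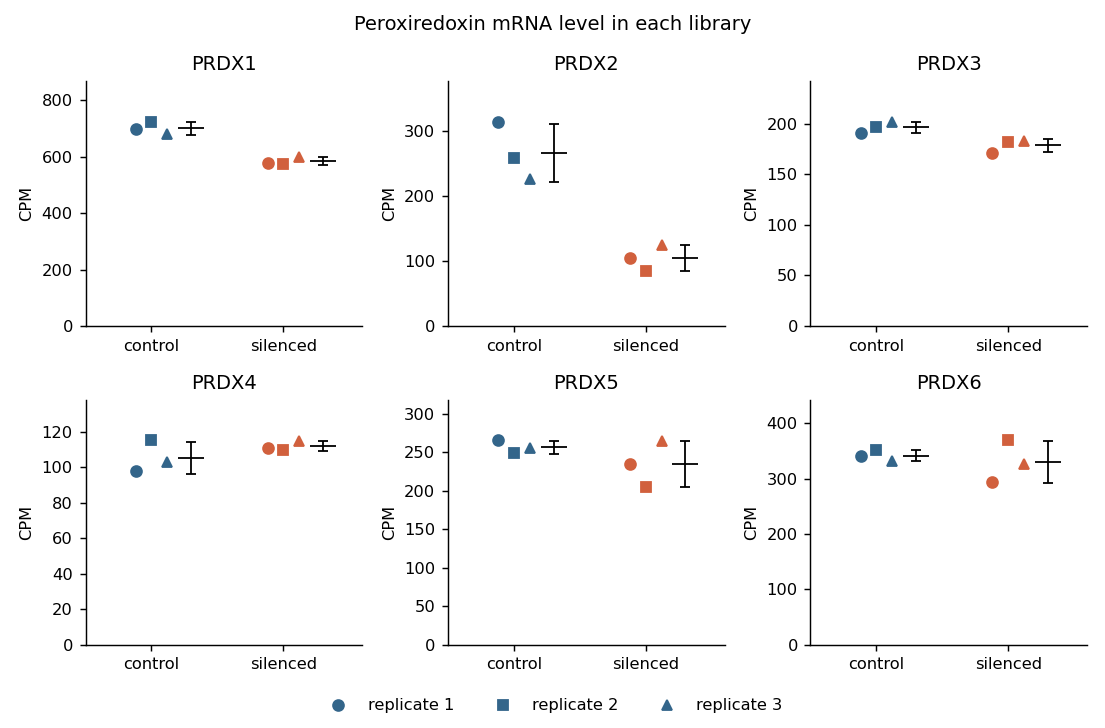
Level of each peroxiredoxin mRNA in CPM (y axis, from 0, a scale of its own per gene) in the control and silenced libraries (x axis). Symbols mark the replicate number and black bars the mean and SD of 3 libraries. The silenced libraries of PRDX2 lie between 84.9 and 126 CPM, all below the control libraries, and those of PRDX4, PRDX5 and PRDX6 overlap the control libraries.

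**Figure D2:**
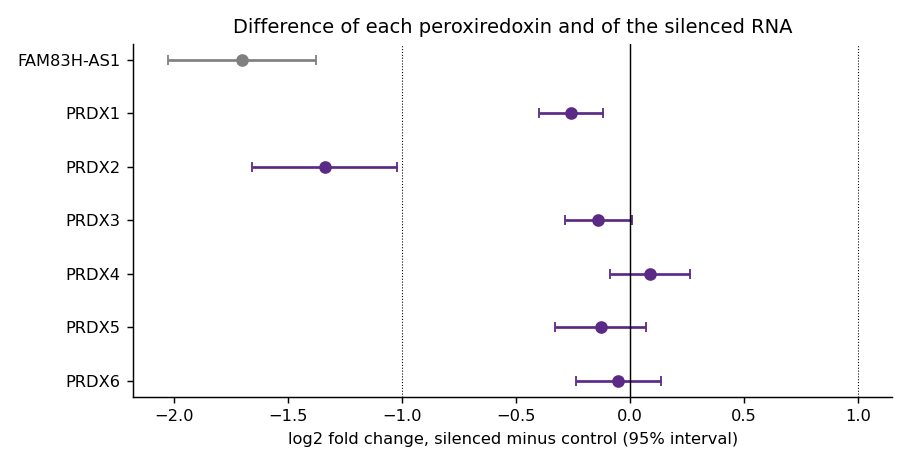
Log2 fold change of silenced against control cells (x axis) for the 6 peroxiredoxins and for FAM83H-AS1, with 95% intervals from edgeR. Dotted lines mark a fold change of 2 in each direction. PRDX2 lies at -1.34 with its interval past the dotted line, and the other 5 members lie between -0.26 and 0.09.

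Read as calls over all genes, 1 of the 6 members, PRDX2, met both thresholds in the study's methods (adjusted p under 0.05 and fold change over 2) as lower after silencing, a call given to 0.997% of all genes tested. At an adjusted p under 0.05 with any fold change, 2 members were lower, PRDX1 and PRDX2, against 8.27% of all genes, and 0 were higher, against 8.75%. The silenced libraries lay below all control libraries for 3 members, PRDX1, PRDX2 and PRDX3, against 17.5% of all genes, and above them for 0 members, against 19.1%. Since PRDX2 was the reason for the choice, nothing is read from these counts. At an adjusted p under 0.01, a cut-off that the study uses as well, 1 member was lower, PRDX2. At that cut-off 903 of the 15250 genes tested passed, both directions together. The call of PRDX1 at an adjusted p under 0.05 was lost when control replicate 2 or silenced replicate 1 was left out. In these fits 1 member remained, and 1759 and 1225 of all genes passed, both directions together. Nothing is read from these counts either. The median log2 fold change was -0.13 over the members and -0.00 over all genes tested.

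Summed over the family, the libraries carried 1868 ± 59.0 CPM of peroxiredoxin mRNA in control and 1545 ± 62.9 CPM in silenced cells (SD, n = 3 each). Without PRDX2 the sums were 1602 ± 32.7 and 1440 ± 50.2 CPM. The share of PRDX2 in the family's counts was 14.2% ± 2.02 in control and 6.78% ± 1.12 in silenced cells, while that of PRDX1 was 37.5% ± 0.863 and 37.9% ± 0.837. PRDX2 thus made up a smaller part of the family after silencing, and PRDX1 about the same part.

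Levels of different genes were compared after division by transcript length, here the merged exons of each gene in kilobases. In control cells PRDX1 was highest at 460 ± 14.3 CPM per kb, followed by PRDX5 at 288 ± 9.59, PRDX6 at 144 ± 4.41, PRDX2 at 127 ± 21.3, PRDX3 at 57.5 ± 1.59 and PRDX4 at 55.4 ± 4.65 CPM per kb (SD, n = 3 each). At this length PRDX6 and PRDX2 could not be separated, since their libraries overlapped, and neither could PRDX3 and PRDX4. With the length of the longest coding transcript instead, PRDX2 at 270 ± 45.2 CPM per kb stood above PRDX6 at 195 ± 5.97 and overlapped PRDX5 at 288 ± 9.59, so its place in the order depends on the length used. In silenced cells PRDX2 was at 50.2 ± 9.73 CPM per kb of merged exons, beside PRDX3 at 52.3 ± 1.99 and PRDX4 at 58.8 ± 1.44. The member that shared the middle of the order in control cells was thus among the lowest 3 in silenced cells. By merged exons, the order of the other 5 means changed only between PRDX3 and PRDX4, which were not separated in control cells. With the longest transcript, PRDX3 at 124 ± 3.41 CPM per kb stood above PRDX4 at 105 ± 8.81 in control cells, without overlap. In silenced cells they were at 112 ± 4.28 and 111 ± 2.72 CPM per kb and overlapped, and the order of the other 5 means did not change.

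**Figure D3:**
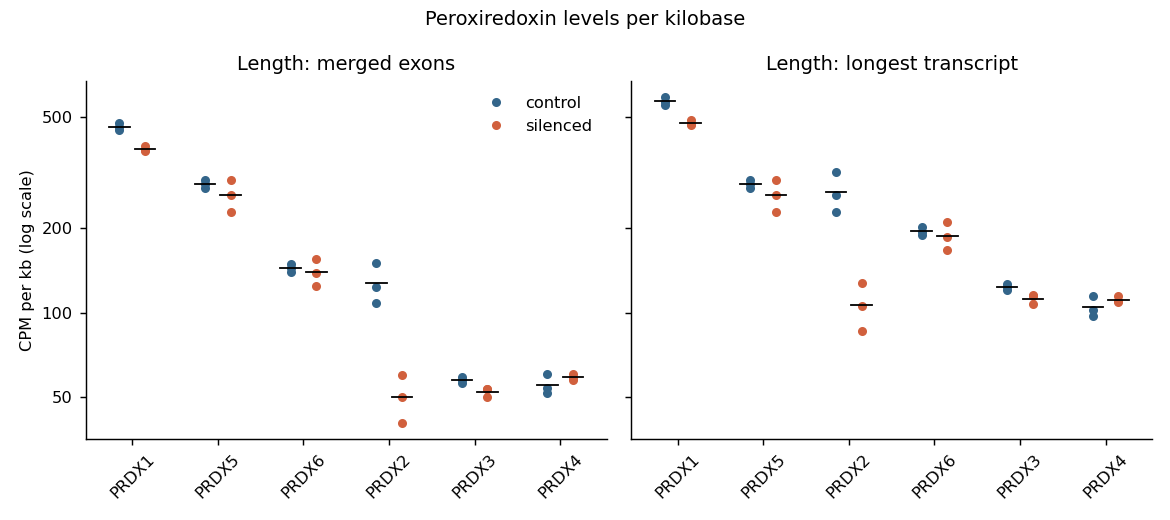
Level of each peroxiredoxin per kilobase (y axis, CPM per kb, log scale) with length taken from merged exons (left) or the longest coding transcript (right). Points are libraries, black lines are means of 3, and genes are ordered by their control mean. PRDX1 is highest under both lengths, and PRDX2 moves from the fourth to the third place in control cells with the longest transcript.

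The spread between replicates also set PRDX2 apart within the family. The pooled SD of its log2 CPM within groups was 0.261, larger than that of 98.4% of the 500 genes nearest to it in level, whose median was 0.0837. The same SD was 0.0390 for PRDX1, 0.0483 for PRDX3, 0.0879 for PRDX4, 0.135 for PRDX5 and 0.121 for PRDX6. PRDX1 lay above 5% and PRDX5 above 82% of their 500 nearest genes. PRDX2 thus had the largest spread between replicates of the 6 members, and the source of this spread was not tested.

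The genes whose profile over the 6 libraries came nearest to that of PRDX2, by the root mean square difference of centred log2 CPM among 12131 genes with a mean of at least 50 counts, were RPL10P16 (0.0565), LOC100294145 (0.110), METTL7A (0.111), HIST1H2BK (0.122) and RPL10 (0.136). RPL10 encodes a protein of the large ribosomal subunit, RPL10P16 is a pseudogene of it that could share its reads, and HIST1H2BK encodes a histone H2B. Like PRDX2, RPL10P16 was highest in control replicate 1 at 160 CPM, lowest in silenced replicate 2 at 47.2 CPM, and had 129, 121, 57.1 and 67.2 CPM in control replicates 2 and 3 and silenced replicates 1 and 3. The nearest other peroxiredoxin was PRDX1, at 0.579 and rank 1794. PRDX1 and PRDX3 were 0.0782 apart, and PRDX3 and PRDX6 were 0.0930 apart. These distances include the difference between the groups for which PRDX2 was selected, so they are given as a description only.

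**Figure D4:**
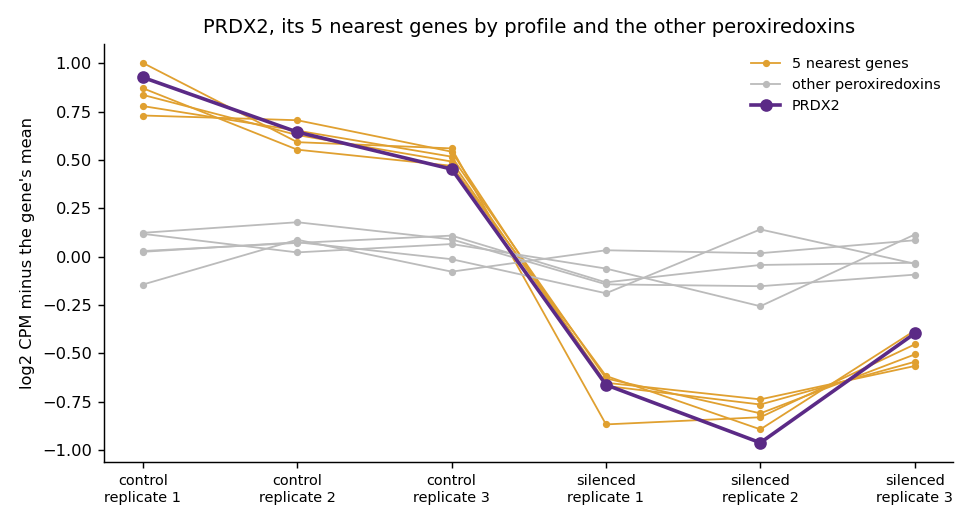
Log2 CPM minus each gene's own mean (y axis) in the 6 libraries (x axis) for PRDX2, the 5 genes nearest to it by profile and the other 5 peroxiredoxins. Lines only join the points of a gene, since replicates have no order. PRDX2 and its 5 nearest genes lie above 0 in all control libraries and below 0 in all silenced libraries.

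The ends of the 6 mRNAs are shown next, because the sequence CCAATAA, which is carried by many mRNAs that were lower in these same libraries, occurs in the 3′-UTR of PRDX2 and of no other member. AATAAA is the usual polyadenylation signal, which directs cleavage of the transcript a short way downstream. Each line gives 30 bases of the RNA strand written with T, 5′ to 3′, with the signal nearest to the annotated end in capitals.
PRDX1: tttgtagtttgtATTAAActtgaactgaga
PRDX2: ctagaggtaaccAATAAAgtattagggaaa
PRDX3: taaaacatacaaAATAAAcatattttaaaa
PRDX4: ttgaaagttctcAATAAAgttcacggtttc
PRDX5: ccagatttctgcAATAAAcacttgtggttt
PRDX6: tttagggaacaaAATAAAatcctttgttaa

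In PRDX2 (chr19:12796827-12796856, GRCh38, minus strand) the sequence CCAATAA is made of the first bases of this signal and the CC before it. It begins at base 235 of a 3′-UTR of 261 bases and leaves 20 bases to the transcript end. PRDX3, PRDX4, PRDX5 and PRDX6 have the same signal after AA, TC, GC and AA, and PRDX1 has the variant ATTAAA after GT. PRDX2 was thus the 1 member of 6 with CC at this place.

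Over the 11556 tested genes with an annotated 3′-UTR, 1469 (12.7%) held CCAATAA on the RNA strand. In 533 of these it lay in the last 50 bases of a transcript, as in PRDX2, and their median log2 fold change was -0.21, with 70.7% below 0. The 936 genes with the sequence only further from the end had a median of -0.03, with 53.7% below 0, and the 10087 without it a median of 0.01, with 47.7% below 0. Among 7394 genes with AATAAA in the last 50 bases of their longest coding transcript, the 323 with CC before it had a median of -0.24, and the 15 other pairs of bases gave medians between -0.14 and 0.06. By the share of genes below 0, CC at 73.4% did not stand apart, since the 39 genes with CG before the signal had 74.4%. METTL7A and RPL10, which were near PRDX2 by profile, also hold CCAATAA, with 28 and 13 bases after it. No annotated 3′-UTR was found for RPL10P16, LOC100294145 and HIST1H2BK, so they were not checked for CCAATAA. This sequence was found in an earlier search of the same libraries, so these values describe them and are no separate evidence, and a match is not a shown binding site.

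The bases complementary to positions 2 to 8 of each strand of the study's siRNAs, which pair with a target in the manner of a microRNA seed, were also looked for in the 3′-UTRs. PRDX2 held none of the 4. PRDX6 held that of 1 strand of the first siRNA, as did 20.2% of all tested genes with a 3′-UTR, and PRDX5 that of the other strand, as did 9.24%. No member held those of the second siRNA, against 26.1% and 12.5% of the genes. The sources used here do not say which of the siRNAs was used for these libraries.

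The copies of the members that are in the count table held few counts. PRDX1P1, which is 94.1% identical to PRDX1, was not analysed here. PRDX2 has 4 annotated processed copies, PRDX2P1 to PRDX2P4, which were 88.0 to 92.6% identical to it. Of all stretches of 50 bases in the PRDX2 transcript used here, between 0 and 2.88% occurred in any single copy. The 4 copies together had 110, 110 and 69 counts in control replicates 1, 2 and 3 and 35, 26 and 48 counts in the silenced replicates, or 1.80 to 3.67% of the counts of PRDX2 in the same library. The counts of the copies were lower in silenced cells, as those of PRDX2 were. Their part in the difference of PRDX2 was not tested. PRDX3P1 had between 17 and 28 counts and PRDX3P2 between 8 and 18, PRDX3P4 had at most 2, and PRDX2P2, PRDX3P3, PRDX4P1 and PRDX4P2 had 0 counts in all 6 libraries. How reads that fit several places were counted is not given in the sources used here.

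In the annotation of GRCh38, whereas the counts were made on GRCh37, PRDX2 spans chr19:12796820-12801859 on the minus strand, within the span of HOOK2 on the same strand. HOOK2, a linker of organelles to microtubules, was at 17.9 ± 1.31 CPM in control and 21.1 ± 0.191 CPM in silenced cells (log2 fold change 0.24, adjusted p = 0.127 by edgeR), and so was not lower with PRDX2. The start of PRDX5 lies 4 bases from that of TRMT112 on the opposite strand, which was at 75.4 ± 4.42 and 66.4 ± 9.86 CPM (log2 fold change -0.18, adjusted p = 0.263). PRDX1 shares 2347 bases with MMACHC on the opposite strand, at 16.3 ± 1.16 and 14.8 ± 2.08 CPM (log2 fold change -0.14, adjusted p = 0.487). The strand setting of the counting is not given in the sources used here, so reads of PRDX1 and MMACHC cannot be told apart where they overlap. HOOK2 lies on the same strand as PRDX2, so a strand setting would not separate their reads in the shared span. TRMT112 shares 0 bases with PRDX5. Each of these 3 genes was at a lower level than the peroxiredoxin beside it. The antisense gene AC018761.2, which overlaps PRDX2, was not analysed here. Neither was THSD8, whose start is the nearest to that of PRDX2, 172 bases away on the opposite strand. The antisense gene AL645568.1, with the start nearest to that of PRDX6, was not analysed either. The pseudogene HMGB1P48, with the start nearest to that of PRDX1, had a mean of 0.0197 CPM in control cells. ACOT9, whose start is the nearest to that of PRDX4 but 102213 bases away, rose from a mean of 72.2 to one of 85.6 CPM (log2 fold change 0.25, adjusted p = 0.0472 by edgeR). This call is near the threshold and is given for the main fit only. SFXN4, whose start is 13166 bases from that of PRDX3, had a log2 fold change of -0.12 (adjusted p = 0.493).

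The genes that act with the peroxiredoxins were followed in 8 lists with 55 genes, of which 42 were tested. Over all lists 5 genes fell, 6 rose and 31 did not pass an adjusted p under 0.05 (edgeR), so 26.2% passed, against 17% of all genes tested (8.27% lower and 8.75% higher). The median log2 fold change was 0.12, against -0.00 over all genes tested. Past a fold change of 2 were 2 genes, TXNRD3 and GSTP1, against 2.14% of all genes tested. Both stood close to this threshold and fell short of it in some other fits. With 1 library left out, the log2 fold change reached -0.95 for TXNRD3 and -0.92 for GSTP1. The lists are small and were chosen with earlier results of these data known, so these shares are a description and no separate evidence. The counts per list below are to be read beside them.

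In the thioredoxin system, which reduces most peroxiredoxins, 2 of 6 genes fell and 2 rose, with a median log2 fold change of -0.10. TXN, the cytosolic thioredoxin, had 149, 150 and 128 CPM in control and 90.5, 97.7 and 100 CPM in silenced cells, without overlap (log2 fold change -0.56, standard error 0.0845, adjusted p = 0.00183). TXNIP, which binds and inhibits thioredoxin, rose from 113 ± 15.0 to 183 ± 18.3 CPM (log2 fold change 0.69, adjusted p = 0.00197). TXNRD1, the cytosolic reductase of thioredoxin, rose by a log2 fold change of 0.35 (adjusted p = 0.0256) but did not pass without control replicate 1, silenced replicate 1 or silenced replicate 2, where the highest adjusted p was 0.0814. TXNRD3, a reductase best known from testis, fell from 9.73 ± 0.938 to 4.83 ± 0.644 CPM (log2 fold change -1.02, adjusted p = 0.00290). The mitochondrial pair TXN2 and TXNRD2, which serve PRDX3, had log2 fold changes of 0.01 and -0.20 and did not pass.

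SRXN1, the sulfiredoxin that repairs overoxidised peroxiredoxins, had a log2 fold change of 0.00 with a 95% interval from -0.19 to 0.20, and none of the 3 tested genes of its list with the sestrins passed (median 0.15). Of the 9 genes of glutathione and glutaredoxin, 1 fell and 0 rose (median 0.12). This was GSTP1, the transferase that helps to reduce PRDX6, with 368, 340 and 396 CPM in control and 181, 159 and 208 CPM in silenced cells. Its groups did not overlap (log2 fold change -1.01, standard error 0.0998, adjusted p = 1.68e-04). GSTP1 was also the 1 partner gene with CCAATAA near a transcript end, 14 bases before it, among the 5 partner genes with this sequence in a 3′-UTR. The other 4 carried it further from the end and had log2 fold changes of 0.26 for BACH1, 0.02 for ERO1A, 0.61 for NOX5 and 0.37 for SOD2. The partner genes TXN, TXNRD3, SOD1 and CYBB also fell and do not hold CCAATAA in an annotated 3′-UTR. The part of this sequence in these differences was not tested.

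The other enzymes that handle superoxide and peroxide moved less evenly. Of catalase and the glutathione peroxidases, 0 of 4 tested genes passed (median -0.09). SOD1, the cytosolic superoxide dismutase, fell from 215 ± 10.4 to 135 ± 34.2 CPM (log2 fold change -0.67, adjusted p = 0.0104). SOD2, its mitochondrial counterpart, rose by a log2 fold change of 0.37 (adjusted p = 0.0232), which did not pass in 4 of the 6 fits without 1 library, with an adjusted p of up to 0.0805. Of the NADPH oxidases and their subunits, which produce superoxide or hydrogen peroxide, 3 were tested and 1 passed. CYBB fell (log2 fold change -0.79, adjusted p = 0.0485), from between 29 and 68 counts a library in control to between 17 and 32 in silenced cells, but did not pass under DESeq2, with library size alone as the scaling, or in any fit without 1 library, with adjusted p-values of up to 0.161.

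In the list of thiol oxidation in the endoplasmic reticulum, the pathway beside which PRDX4 acts, 2 of 10 genes rose and 0 fell, with a median log2 fold change of 0.23. These were the disulfide isomerases PDIA6 (0.34, adjusted p = 0.0297) and PDIA4 (0.25, adjusted p = 0.0367). PDIA6 did not pass without control replicate 1, control replicate 3 or silenced replicate 2, and PDIA4 did not pass in 5 of the 6 fits without 1 library, with adjusted p-values of up to 0.0919 and 0.125. Of the regulators, 1 of 5 rose and 0 fell (median 0.13). This was MAP3K5, the kinase ASK1, which is held inactive by reduced thioredoxin (log2 fold change 0.43, adjusted p = 0.0109). NFE2L2, the main activator of antioxidant genes, and its inhibitor KEAP1 did not pass.

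**Figure D5:**
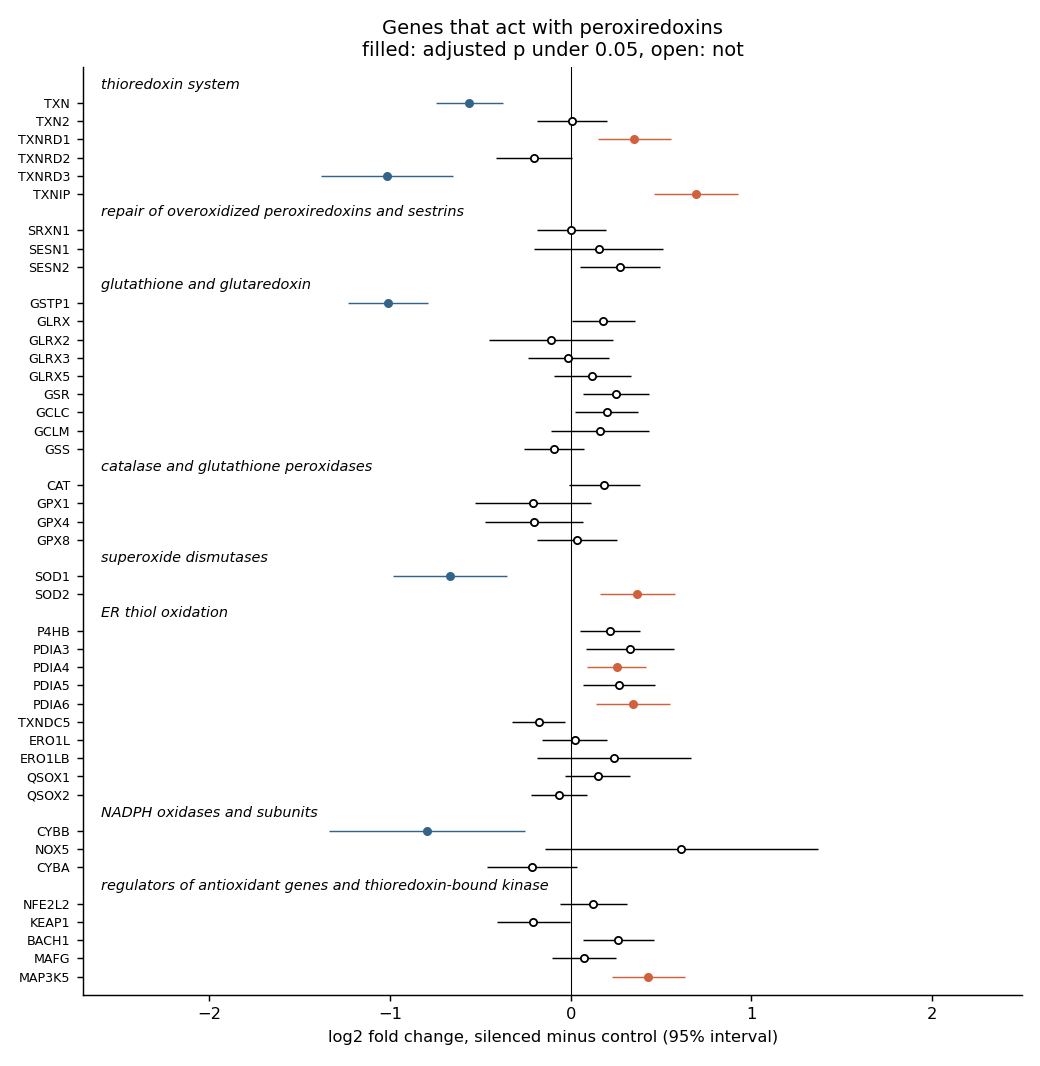
Log2 fold change of silenced against control cells (x axis) with 95% intervals for the 42 tested partner genes, grouped by list. Filled symbols passed an adjusted p under 0.05 (edgeR), blue for lower and orange for higher, and open symbols did not. The filled symbols are 5 lower and 6 higher genes, with GSTP1 at -1.01, TXN at -0.56 and TXNIP at 0.69.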

How the data were processed

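RNA from 3 control and 3 FAM83H-AS1-silenced A549 libraries was sequenced on the Ion Proton platform. The authors mapped reads and obtained the number of mapped reads per gene with MapSplice, on GRCh37 per the submitters' processing notes, and deposited these counts without normalization in 1 table. Total counts per library bound the precision of low genes. Their own test was DESeq.

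Genes were filtered with filterByExpr, scaled by TMM and tested with edgeR 4.0.16 (glmQLFit and glmQLFTest, no covariates) in R 4.3.3, with Benjamini-Hochberg adjustment over 15250 genes. CPM values used TMM-scaled totals of the filtered genes. DESeq2 1.42.0 and other scalings, filters, thresholds and left-out libraries were alternatives. The fit was tested on simulated counts. Replicates of a group differed beyond sampling noise (chi-square per degree of freedom 4.20 to 29.7).

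Locations, transcripts and sequences came from GENCODE release 29 on GRCh38, matched by symbol for all 6 members. Alignments used biopython 1.88. The members, the lists and the sequence CCAATAA were chosen with earlier results of these data known. Named were FAM83H-AS1, all members and their copies, overlapping or nearest genes, TXN, TXNRD1, SRXN1, GSTP1 and up to 6 passing genes per list, and the 5 genes nearest to PRDX2 by profile. The count of members passing, TXN2, TXNRD2, NFE2L2 and KEAP1 and the view of transcript ends were added after the values were seen. A gene of the lists as first written was left out of them and of all their counts, and is not reported here.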

Additional observations from a re-analysis of the deposited data

How the results depend on the processing

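PRDX1 and PRDX2 were the members with an adjusted p under 0.05 under DESeq2, the other scalings and the other filters. These calls come from the same libraries on which PRDX2 was selected, so nothing is read from them. PRDX1 lost this call when control replicate 2 or silenced replicate 1 was left out, and PRDX6 turned from -0.05 to 0.03 without silenced replicate 1, within its interval. The genes meeting both thresholds numbered 326, against 583 with every gene of at least 1 count, 199 with at least 10 counts in every library, 148 at an adjusted p under 0.01, and 200 to 335 with 1 library left out. Genes with an adjusted p under 0.05 numbered 2595, against 903 at an adjusted p under 0.01 and 1225 to 1962 with 1 library left out, the lowest without silenced replicate 1. Of the 11 partner genes that passed, 4 did at an adjusted p under 0.01. With 1 library left out, between 6 (without control replicate 1) and 9 partner genes passed, and 7 passed without silenced replicate 1. Over 12 alternatives 6 of the 11 passed each time. Levels per kilobase with the longest transcript were higher for all members but PRDX5, which changed the place of PRDX2 and separated PRDX3 from PRDX4 in control cells. The causes were not tested.

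Replicate numbers are shared by both groups, but nothing in the labels says what they mark. Deviations of same-numbered libraries had correlations of 0.12, 0.15 and 0.07, and every library correlated best with its own number, which is a hint from the data only. With the replicate number as a block, 380 genes met both thresholds, 3449 had an adjusted p under 0.05 and 15 partner genes passed. The log2 fold change of PRDX2 was -1.34 with the block, and the same 2 members passed, from which nothing is read either. With 3 libraries a group, small differences of PRDX3 to PRDX6 could not be resolved.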
